A study of Enchytraeus crypticus with 30 samples.

Results

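The response of the potworm *Enchytraeus crypticus* to nickel nitrate was measured after 3 days at the EC50, the concentration that reduces reproduction by 50%. The members are 6 of the 30 arrays of the series, 3 with the label NiNO3 EC50 3days and 3 with the label Control 3days, and each array was placed in its group by its title. Treated animals were kept in the natural standard soil LUFA 2.2 spiked with NiNO3, and control animals in the same soil without added nickel. In both groups the animals were adults with a clitellum, were given no food, and were extracted as whole bodies, 20 to a pool, so a level is an average over all tissues of 20 worms. The other 24 arrays hold NiNO3 at the EC20, the concentration that reduces reproduction by 20%, and nickel nanoparticles (Ni-NPs) at their own EC20 and EC50 at day 3, and the same treatments with their own controls at day 7. The titles number the 3 arrays of a condition as replicates, and the study describes them as biological replicates, each a separate pool of worms.

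Enchytraeids are small oligochaete worms that live in soil and litter, and their reproduction is a standard endpoint for soil contaminants. Nickel salts dissolve in pore water and release the divalent ion, which in animals can displace other divalent metals from proteins and is known to provoke metal-binding, antioxidant and heat-shock responses. None of these gene classes could be read out here, because the probes of the array carry the names of assembled sequences and no gene name was used. Of the 43750 gene probes, 23177 are named as contigs and 20573 by codes such as GYUW2K402HVQN1, and each is called here by that name.

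Probes entered the analysis if the scanner software called them positive and significant on every array of the series, as it did for 24653 of the 43750 gene probes (56.3%). The level of a probe is the log2 of its processed signal minus the median of these probes on the same array, so that 0 is the level of the middle probe and a difference of 1 is a doubling. Between 34908 and 39144 probes were positive and significant on each of the 6 arrays, between 56.4% and 71.2% were well above background, and none was saturated. The levels of all probes correlated at 0.965 to 0.978 between control arrays, at 0.967 to 0.982 between treated arrays, and at 0.956 to 0.984 between the groups, so no array stood far from the others. The arrays lay on 4 slides that were scanned on 2 days. Replicate 3 of both groups shared a slide and the later scan day, whereas the control arrays of replicates 1 and 2 shared another slide and the treated arrays of replicates 1 and 2 lay on separate ones.

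After 3 days at the EC50, 178 probes differed from the control at an adjusted p under 0.05, of which 84 were over-expressed and 94 were under-expressed. These are 0.722% of the probes tested, with 0.341% over-expressed and 0.381% under-expressed. The test was limma (two-sided, a model of the 10 condition means over the whole series), with p-values adjusted by the Benjamini-Hochberg method over all probes of the comparison. Without adjustment, 2386 probes (9.68%) had a p under 0.05. The over-expressed probes rose by a median of 1.34 on the log2 scale (interquartile range 1.12 to 1.74), with 72 over 2-fold, 19 over 4-fold and 4 over 8-fold. The under-expressed probes had a median log2 difference of -1.50 (interquartile range -1.91 to -1.14), with 77 beyond 2-fold, 20 beyond 4-fold and 4 beyond 8-fold. Over all probes tested, the median was -0.05 and the interquartile range -0.30 to 0.20, so the middle of the distribution hardly moved against the array median that sets its scale. In all 178, the 3 treated arrays lay on one side of the 3 control arrays, which also held for 3990 probes in all (16.2% of those tested, 6.62% higher and 9.56% lower). In RNA of whole animals, fewer cells of a type and less RNA per cell cannot be told apart.

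Probes past the threshold were spread over the range of levels. The share was 0.146% in the dimmest of 4 equal groups of probes, 0.617% in the next, 1.18% in the third and 0.941% in the brightest, while the median standard error of the difference fell from 0.45 to 0.34, 0.27 and 0.23. Contigs made up 37 of the 84 over-expressed probes and 56 of the 94 under-expressed ones, against 50.9% of all probes tested. For 2 of the over-expressed probes, no control array was well above background, so their fold is only a bound, and with these at their bound the median rise was 1.32. For 1 of the 2, GYUW2K401CQGLZ, only 2 of 3 treated arrays were well above background, so its bound is not firm. A further 7 over-expressed probes had some but not all control arrays well above background. In the other direction, no under-expressed probe was below this limit on all treated arrays, although 3 were on some of them.

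**Figure D1:**
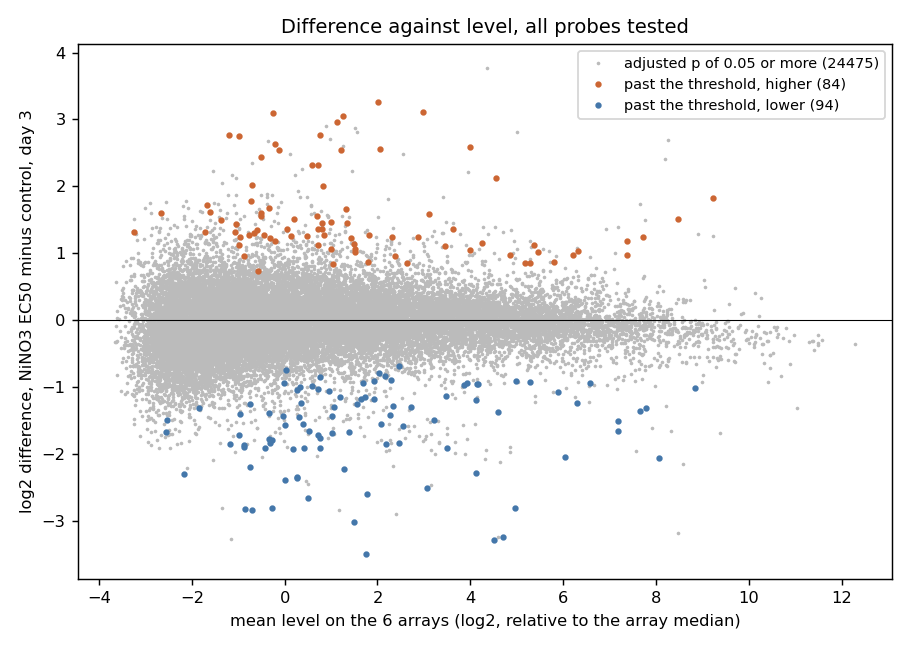
The log2 difference between NiNO3 EC50 and control at day 3 is plotted against the mean level on the 6 arrays for all 24653 probes tested. The 84 over-expressed and 94 under-expressed probes past the threshold are coloured and lie at both sides over most of the range of levels, among grey probes of similar size that did not pass.

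The largest rise among the probes past the threshold was that of contig01277. Its level was 0.45, 0.06 and 0.62 on the control arrays and 3.72, 3.67 and 3.52 on the treated ones. The treated arrays lay close together and far above every control array, with a log2 difference of 3.26 (standard error 0.29, 95% interval 2.67 to 3.85, limma adjusted p = 1.3e-06), which is 9.58-fold and also the lowest adjusted p of the comparison. GYUW2K402HVQN1 was at 1.35, 1.48 and 1.45 in the controls and at 4.08, 4.34 and 5.19 in the treated arrays, a difference of 3.11 (standard error 0.42, adjusted p = 0.000249) whose spread comes from the treated side. Similarly, contig00985 was at 0.23, -0.59 and -0.42 in the controls and at 2.12, 2.96 and 3.28 after treatment, a difference of 3.05 (standard error 0.32, adjusted p = 1.25e-05).

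Replicates were tightest for GYUW2K402IP9J9 among the 10 largest rises. It was measured at -0.31, -0.38 and -0.34 in the controls and at 2.54, 2.60 and 2.70 in the treated arrays. The arrays of each group lay almost on top of each other, and the groups differed by 2.96 (7.77-fold, standard error 0.30, adjusted p = 8.37e-06). Contig24978 rose from -0.73, -0.42 and -0.71 to 1.70, 1.96 and 2.77, by 2.76 (standard error 0.27, adjusted p = 6.47e-06). A wider spread on the control side was seen for contig19147, at 1.90, 2.60 and 3.59 in the controls and at 5.36, 5.25 and 5.24 in the treated arrays. Its groups were still separate, and the difference was 2.59 (standard error 0.30, adjusted p = 2.69e-05).

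At the other end stood GYUW2K401BGRAE, with one control array at -0.01 and the others at -2.56 and -2.82, against 0.72, 1.28 and 1.92 in the treated arrays. The first control array lay close to the treated ones, and the rise of 8.59-fold had a standard error of 0.72 on the log2 scale and an adjusted p of 0.0405, and 2 of its 3 control arrays were well above background. The remaining probes of these 10 were contig05081, GYUW2K402JE6WU and GYUW2K401BP9T5, which rose by between 2.63 and 2.77 (6.2-fold to 6.82-fold), with adjusted p between 0.00053 and 0.0104. Of the first of these, 1 of 3 control arrays was well above background, and of the next, 2 of 3.

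**Figure D2:**
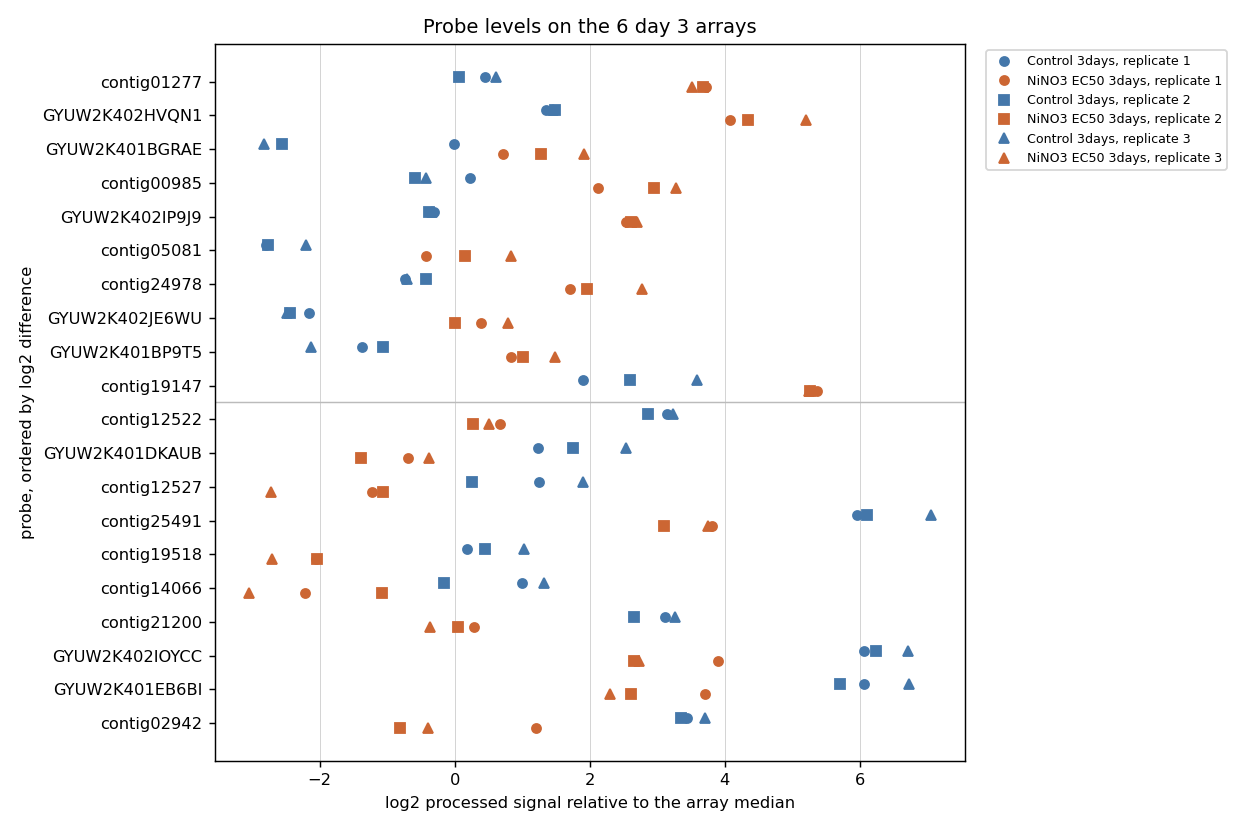
The level (log2 processed signal relative to the array median) of the 10 probes with the largest rise (top) and the 10 with the largest fall (bottom) is shown for each control and treated array of day 3, with a marker for each replicate number. The groups are separate for every probe, with the widest fold among the falls for contig02942 (-3.50) and among the rises for contig01277 (3.26), and a control array of GYUW2K401BGRAE at -0.01 comes close to the treated ones.

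Among the falls, the largest was that of contig02942, which was at 3.44, 3.35 and 3.71 in the controls and at 1.20, -0.81 and -0.39 in the treated arrays. Treated replicate 1 kept a higher level than the others, and the log2 difference was -3.50 (11.3-fold, standard error 0.55, 95% interval -4.64 to -2.36, limma adjusted p = 0.00124). Treated replicate 1 was also the highest for GYUW2K401EB6BI, at 6.06, 5.70 and 6.73 in the controls and 3.71, 2.61 and 2.30 after treatment. Its difference was -3.29 (standard error 0.46, adjusted p = 0.000355). GYUW2K402IOYCC was at 6.05, 6.23 and 6.71 in the controls and at 3.89, 2.66 and 2.72 in the treated arrays, again with replicate 1 the highest, and its difference was -3.24 (standard error 0.37, adjusted p = 2.2e-05).

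Contig21200 was at 3.11, 2.65 and 3.26 in the controls and at 0.29, 0.04 and -0.37 in the treated arrays. All treated arrays lay near the array median and the difference of -3.02 (standard error 0.34, adjusted p = 2.15e-05) was shared with contig05768 as the lowest adjusted p among the falls. The latter was at 1.11, 1.08 and 1.42 in the controls and at -0.97, -1.57 and -1.01 after treatment, a difference of -2.39 (5.23-fold, standard error 0.27). Contig12522 and contig25491 fell by 2.60 and 2.81, with adjusted p of 0.000444 and 0.000555, and GYUW2K401DKAUB fell by 2.66 with an adjusted p of 0.002. Less precise were contig12527, contig19518 and contig14066, which fell by between 2.80 and 2.84 with standard errors of 0.51, 0.62 and 0.66 and adjusted p of 0.00582, 0.0312 and 0.0431. For contig14066 the treated arrays ran from -1.08 to -3.04, further than the gap between the groups.

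Changes were not limited to dim probes. Contig10742, one of the 3 named for the highest signal among the over-expressed, was at 8.36, 8.10 and 8.46 in the controls and at 10.20, 10.30 and 9.90 in the treated arrays. Every treated array was well above every control array, and the difference was 1.83 (3.55-fold, standard error 0.28, adjusted p = 0.00108). Contig14832 and contig12955 rose by 1.51 and 1.24, with adjusted p of 0.0101 and 0.00458. In the other direction, contig02579 was at 9.13, 8.67 and 9.49 in the controls and at 7.39, 6.71 and 7.01 in the treated arrays. No array came between, and the difference was -2.06 (4.17-fold, standard error 0.28, adjusted p = 0.000302). GYUW2K401EBDZS was 2.47-fold and contig12635 2.03-fold lower, with adjusted p of 0.0141 and 0.0362.

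Some of the probes past the threshold belong to contigs of adjacent numbers. Of the 93 contigs past it, 70 had a tested contig with the next or the previous number. For 9 of these (12.9%) such a neighbour had also passed in the same direction. Of all probes, 0.341% passed as over-expressed and 0.381% as under-expressed. These shares are per probe, whereas a contig could have a neighbour on each side, so the comparison is not like for like. In 5 pairs both passed in the same direction, and in 0 pairs in opposite directions. Contig05080, contig05081 and contig05082 rose by 2.03, 2.77 and 1.56. The first was at -1.93, -1.51 and -1.72 in the controls and at -0.15, 0.56 and 0.51 after treatment, and the last at -0.49, -0.05 and 0.26 against 1.29, 1.44 and 1.67. Their control and treated arrays did not overlap.

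Contig02578 and contig02579 fell by 2.28 and 2.06, and contig02577, the next number down, missed the threshold with a difference of -2.11 and an adjusted p of 0.0516. Contig00075 and contig00076 fell by 1.31 and 1.90, and contig04747 and contig04748 fell by 1.43 and 1.57. Over the 30 arrays, the levels of the members of these 5 pairs correlated at 0.55 to 0.82, against a median of 0.07 over the 6136 adjacent pairs tested. The correlations are a description, since the 6 arrays that chose the pairs are among the 30 and neighbouring numbers may stand for pieces of the same transcript, which was not tested. Contig05362 and contig05364, which are not adjacent and were noted after their values were seen, rose by 2.54 and 2.13.

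The threshold did not separate large from small differences. Just inside it, contig26375 and contig25506 had adjusted p of 0.0492 and 0.0496 with differences of -1.67 and -1.25, and just outside it, contig03471 and contig02577 had 0.0502 and 0.0516 with differences of -1.42 and -2.11. Of the 78 probes that differed by more than 4-fold, 39 did not pass, of which 21 were higher and 18 lower in the treated arrays, and in 14 of them the groups overlapped. The median standard error was 0.37 for those that passed and 0.84 for those that did not.

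The largest difference of all, chosen here after its values were seen, was that of contig00196, which did not pass. It was at 5.23, 2.17 and 0.04 in the controls and at 5.65, 6.71 and 6.38 in the treated arrays. The control arrays spread over most of the range and the highest came close to the treated ones, and the difference of 3.76 had a standard error of 1.04 and an adjusted p of 0.118. The controls of day 7 were as variable for this probe (standard deviation 2.81, n = 3, against 2.61 at day 3), while the standard deviation was between 0.26 and 1.03 in the 8 nickel treatments. For GYUW2K401EFRD2 the spread was on the treated side, at 5.16, 2.89 and 0.89 against 6.01, 5.66 and 6.99 in the controls, and the difference of -3.24 had an adjusted p of 0.0693.

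Scan day could be separated from the treatment in part, since each scan day held both groups. Among the 6 arrays, only the slide of the replicate 3 arrays held both groups, so the slide terms below also rest on arrays of other conditions. On the first scan day, with 2 treated against 2 control arrays, all 84 over-expressed and all 94 under-expressed probes kept their direction, with median differences of 1.43 and -1.45. Between the replicate 3 arrays of the later scan day, which shared a slide, all 84 and all 94 kept it as well, with medians of 1.36 and -1.79, against -0.15 over all probes. All of these counts had to follow, since the treated and control arrays of the 178 probes did not overlap. Both days also entered the choice of the probes, so the medians are a description. Contig01277 differed by 3.44 on the first day and by 2.90 on the other, and contig02942 by -3.20 and -4.10. With scan day as a block, 252 probes passed (117 higher, 135 lower), including all 178. With slide as a random block (consensus correlation within slides 0.28), 178 passed (77 higher, 101 lower), 157 of them among the 178 above. With slide as a fixed block 65 passed (28 higher, 37 lower), 59 of them among the 178. In the fixed fit each slide takes up a term of its own, and 7 of the probes named here no longer passed, among them GYUW2K401BGRAE, contig14066 and contig12527.

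The number of probes past the threshold depended on single arrays. It was 89 without treated replicate 2, 69 without treated replicate 3, 89 without control replicate 2 and 95 without control replicate 3, and 152 and 126 without treated and control replicate 1. A total of 53 of the 178 (23 over-expressed, 30 under-expressed) passed in all 6 of these fits. The direction of all 178 was kept in each, which had to follow, since their treated and control arrays did not overlap. Contig01277, GYUW2K402HVQN1, contig00985 and GYUW2K402IP9J9 and the 4 largest falls were among the 53, whereas GYUW2K401BGRAE, GYUW2K401BP9T5, contig14066, contig19518 and contig12527, and contig14832, contig12955, contig12635 and GYUW2K401EBDZS of the brightest probes, were not. Without both replicate 3 arrays, 53 probes passed (29 higher, 24 lower), 51 of them among the 178. When the spread was estimated from the 6 arrays alone, 16 passed (8 higher, 8 lower), all among the 178.

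The split between over- and under-expressed probes depended on the scaling. It was 47.2% over-expressed with the median, 43.5% with the 75th percentile and 49% with Quantile normalization. After MedianCD and SVCD normalization, methods of the study that take the common reference from genes selected for showing no variation between conditions, it was 84.3% (280 of 332) and 77.3% (197 of 255). Scaling to the spike-in transcripts, control RNAs with their own probes on the array, gave 77.8% (21 of 27). Relative to the median scaling, these 3 methods raised all treated levels against the control by 0.23, 0.19 and 0.41 on the log2 scale. The direction of all 178 probes was the same under every scaling. For these 3 shifts that had to follow, since the smallest differences past the threshold were 0.73 and -0.69. Of the 178, 128 (76 over-expressed, 52 under-expressed) passed under all 5 of the scalings without spike-ins. For this count the 75th percentile was taken over the probes tested, and for the 43.5% over all gene probes.

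The spike-in transcripts gave little hold on such a shift. The median of all probes, measured against the mean of the 7 spike-in transcripts that were well above background and not saturated, was at -7.42, -6.70 and -8.21 on the control arrays and at -7.16, -7.08 and -6.84 on the treated ones. Control replicates 2 and 3 lay on either side of all treated arrays. The difference was 0.41, below the standard deviation of the controls of 0.76 (n = 3), with p = 0.5 in an exact two-sided permutation test in which 3 arrays against 3 cannot go below 0.1. It was -0.06 on the first scan day and 1.37 between the replicate 3 arrays.

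**Figure D3:**
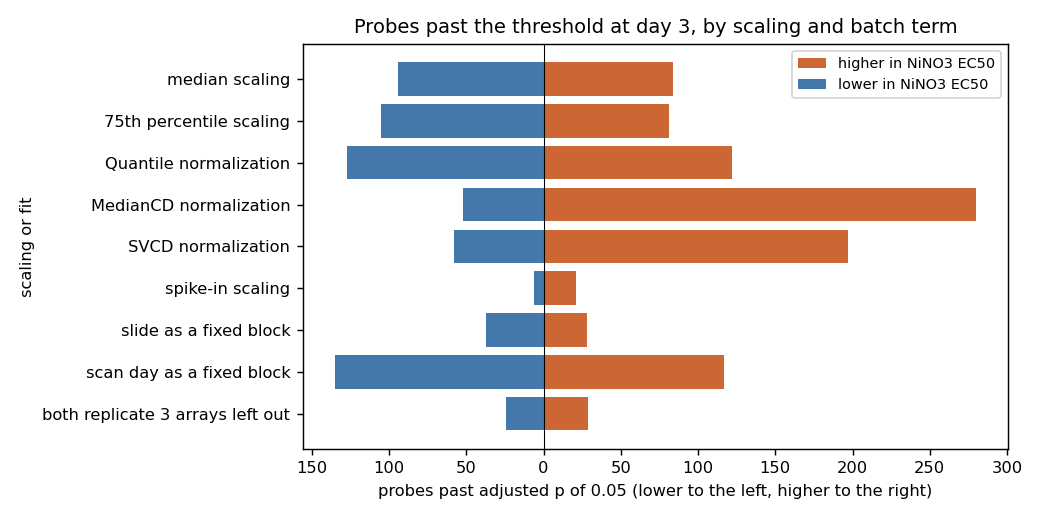
The number of probes past the threshold at day 3 is shown by scaling and batch term, with under-expressed probes to the left of 0 and over-expressed probes to the right. Median scaling gives 84 to the right and 94 to the left, and MedianCD gives 280 and 52.

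To compare the EC50 with the EC20 of the same salt, their arrays of day 3 were contrasted directly, without control arrays. At an adjusted p under 0.05, limma found 0 probes, the smallest adjusted p was 0.887, and 1096 probes (4.45%) had an unadjusted p under 0.05. The median half-width of the 95% interval was 0.65 on the log2 scale. This interval is not adjusted for the number of probes, so differences above that size may also have gone undetected. The 20 probes with the largest changes, which were named on the same EC50 arrays, differed by between -1.09 (contig12527) and 1.10 (GYUW2K401BGRAE), and their intervals limit the difference only in part. For contig01277 it was -0.29 (95% interval -0.88 to 0.31), and for GYUW2K402IP9J9 it was 0.20 (-0.43 to 0.83). Contig00985 was higher at the EC50 by 0.72 (0.05 to 1.40, adjusted p = 0.887) and GYUW2K402JE6WU lower by 0.89 (difference -0.89, -1.72 to -0.06, adjusted p = 0.887).

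Against the day 3 control, which both concentrations share, the over-expressed probes of the EC50 had a median log2 difference of 1.10 at the EC20 and the under-expressed ones of -1.19. Contig01277 differed from the control by 3.55 at the EC20 and by 3.26 at the EC50, contig21200 by -3.06 and -3.02, and contig10742 by 2.01 and 1.83. Because the EC50 arrays chose these probes, a larger median at the EC50 follows in part from the choice.

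The salt was compared with the nanoparticles at the EC50 of each, which are set by the effect on reproduction and not by an equal amount of nickel. In the direct contrast at day 3, limma again found 0 probes past the threshold, with 782 (3.17%) at an unadjusted p under 0.05. The smallest adjusted p was 0.0665, for contig05383, which was higher with the salt by 1.31 (95% interval 0.87 to 1.75). This probe passed after MedianCD and SVCD normalization and with slide as a random block, with differences of 1.33 to 1.40. It was named after its values were seen and is not one of the 178, with a difference of 0.51 from the control.

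None of the probes with the largest changes passed in this contrast. They were named on the same EC50 arrays of the salt, so a larger change with the salt follows in part from the choice. Contig02942 was lower with the salt than with the nanoparticles by 1.99 (difference -1.99, 95% interval -3.13 to -0.86), GYUW2K401EB6BI had a difference of -1.50 (-2.45 to -0.55) and GYUW2K402IOYCC of -1.21 (-1.97 to -0.45). The unadjusted intervals of contig21200, contig19518, contig12527 and contig12522 also lay below 0. Contig14066 ran the other way, with 1.67 (0.30 to 3.03). Contig00985 was 1.50 higher with the salt (0.83 to 2.17, adjusted p = 0.706). By contrast, the intervals of contig01277 (0.04, -0.56 to 0.63) and GYUW2K402IP9J9 (-0.07, -0.69 to 0.56) were centred near 0. Measured against the shared day 3 control, the nanoparticles at the EC50 had median differences of 1.01 for the over-expressed and -1.07 for the under-expressed probes of the salt, and at the EC20 of 0.70 and -0.84.

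**Figure D4:**
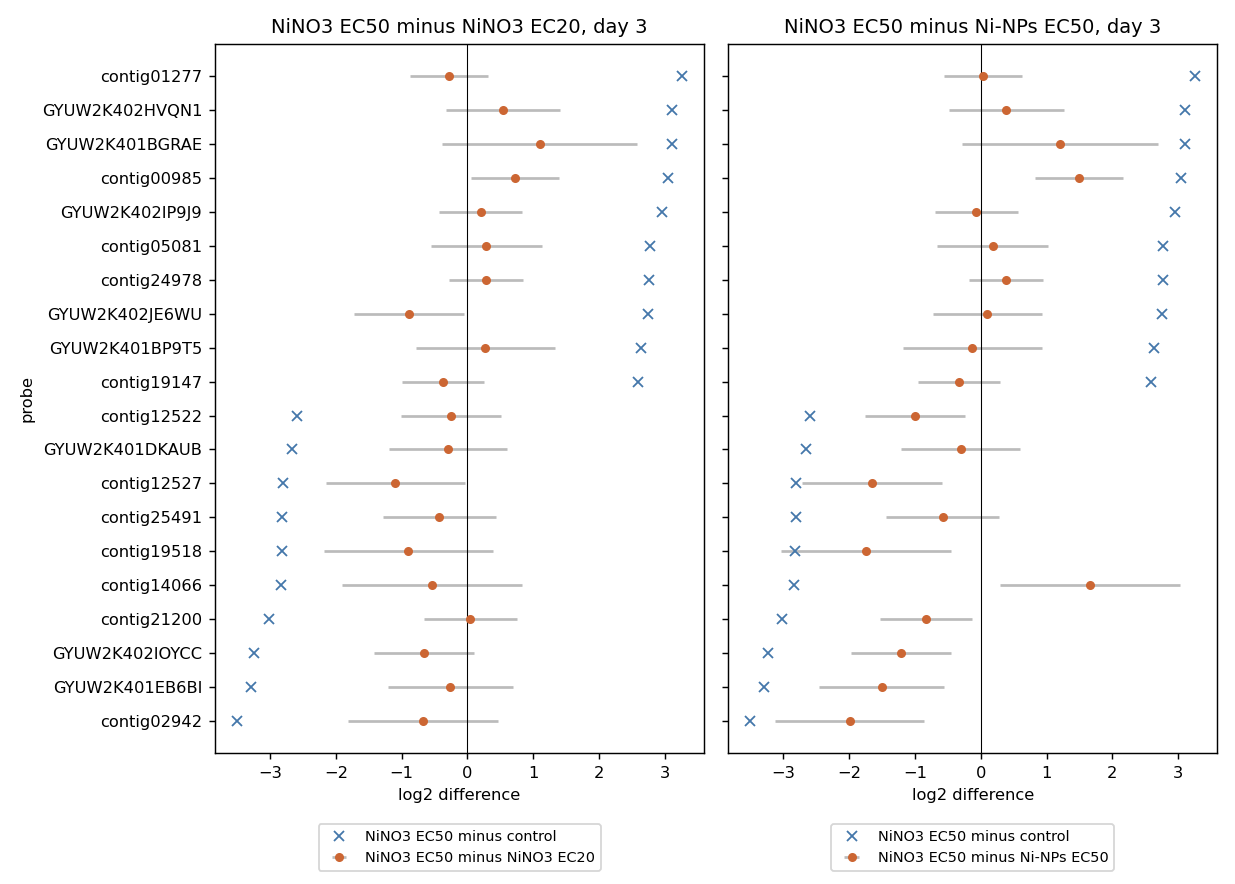
Direct log2 differences at day 3 are shown with their 95% intervals for the 20 probes with the largest changes, NiNO3 EC50 minus NiNO3 EC20 on the left and NiNO3 EC50 minus Ni-NPs EC50 on the right, with crosses at the difference from the control. Most intervals on the left include 0, and on the right contig02942 lies at -1.99 and contig00985 at 1.50.

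The samples of day 7 have their own controls, and their levels do not enter the day 3 differences. They did take part in the choice of the 178 probes through the detection filter and the pooled estimate of the spread, and with only the day 3 arrays in the fit 114 probes passed (51 higher, 63 lower), 100 of them among the 178. At the EC50 of NiNO3, 81 of the 84 over-expressed and 92 of the 94 under-expressed probes had the same direction at day 7 as at day 3, against 63.7% of all probes tested. With limma, 50 and 43 of them also passed the threshold at day 7 in the same direction and 0 in the opposite one, where 1.34% of all probes passed (0.681% higher and 0.657% lower). These 93 are 52.2% of the probes past the threshold at day 3 and 28.2% of the 330 past it at day 7. The medians were 1.12 and -1.08 at day 7, and 1.34 and -1.50 at day 3, where the probes were chosen.

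Values of single probes at both days are given side by side, and the difference between the days passed the threshold for none of the 6 that follow (the smallest adjusted p was 0.829, for contig00985). Contig24978 differed from its own control by 2.76 at day 3 and 3.02 at day 7, contig21200 by -3.02 and -3.58, contig25491 by -2.81 and -2.93, and GYUW2K402HVQN1 by 3.11 and 4.20. Contig00985 was at 3.05 and then 1.26 (adjusted p at day 7 of 0.0509), and contig12527 at -2.80 and -0.84 (adjusted p of 0.678). The 5 probes of opposite direction, named after their values were seen, were contig06950, GYUW2K401CQGLZ and GYUW2K401B7HFU, which were higher at day 3 and had differences of -0.20, -0.07 and -0.11 at day 7, and GYUW2K402HHXOM and contig25506, which were lower at day 3 and had 0.03 and 0.70. The smallest adjusted p of these 5 at day 7 was 0.408.

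**Figure D5:**
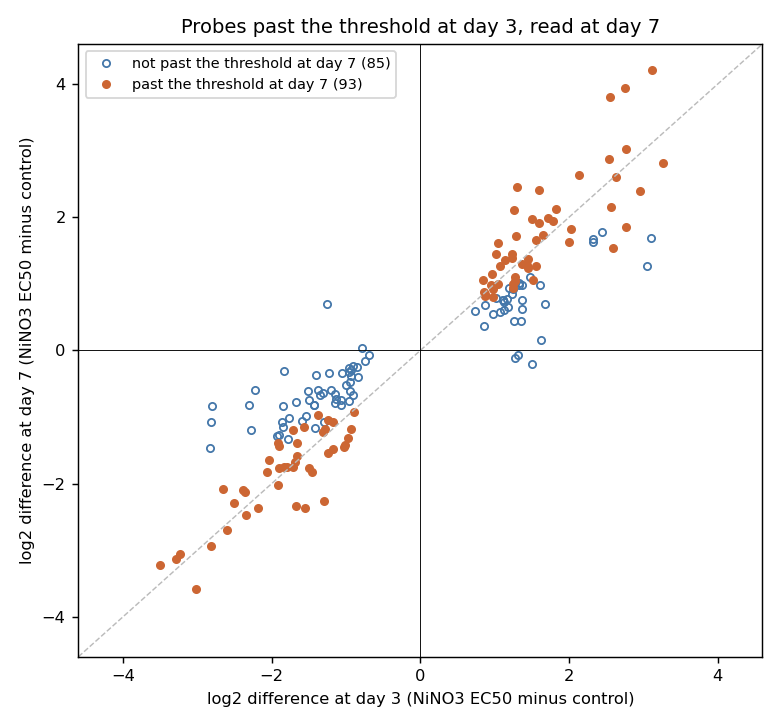
The log2 difference between NiNO3 EC50 and its own control at day 7 is plotted against that at day 3 for the 178 probes past the threshold at day 3, with filled points for the 93 that also passed at day 7. All but 5 lie in the quadrants of equal direction, and the dashed line marks equal size.

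An interaction term compared the response at day 7 with that at day 3, and 2 probes passed (0.00811% of those tested), both higher at day 7, with 712 (2.89%) at an unadjusted p under 0.05. Contig11434 was at 6.71, 6.06 and 6.98 in the day 3 controls and at 5.54, 5.68 and 6.07 after 3 days at the EC50, so that the groups just overlapped, with a difference of -0.82 (adjusted p = 0.211). At day 7 it was at 6.61, 6.28 and 6.10 in the controls and at 8.51, 8.60 and 8.10 in the treated arrays. The response differed by 2.90 between the days (standard error 0.37, 95% interval 2.13 to 3.66, adjusted p = 0.00133). Contig07722 was at -0.70, -0.98 and -0.53 in the day 3 controls and at 0.06, -0.13 and -0.03 after treatment, and at day 7 at -1.40, -0.95 and -1.31 against 3.97, 4.55 and 3.06. The groups were separate at both days but far further apart at the later one, with 0.70 (adjusted p = 0.721) and 5.08, a difference of 4.38 (2.91 to 5.85, adjusted p = 0.0312). Only contig11434 passed in each of the fits without a single day 3 array, and without treated replicate 3 of day 7 the count was 17. The median half-width of the 95% interval was 0.92, wider than for a single day.

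In the other day 7 treatments, which share the day 7 controls with each other but no array with day 3, the direction of the 178 probes was also followed. Of the 84 and 94 probes, 82 and 91 had the same direction in NiNO3 EC20, 82 and 88 in Ni-NPs EC50 and 72 and 69 in Ni-NPs EC20, against 63.1%, 64.4% and 50.2% of all probes. The same direction in all 4 day 7 treatments was found for 138 of the 178 (77.5%) and for 27.8% of all probes. The probes that passed in the same direction numbered 44 in NiNO3 EC20 (24 and 20, background 0.345%), 29 in Ni-NPs EC50 (20 and 9, background 0.195%) and 3 in Ni-NPs EC20 (2 and 1, background 0.0122%). The last 3 were contig24978, GYUW2K402JE6WU and contig21200, and they passed in all 4.

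Some probes outside the analysed set were positive and significant on all arrays of one group and on none of the other. There were 109 (0.249% of 43750) detected in the treated group alone and 61 (0.139%) in the control group alone. Nearly all were dim: 1 of the 109 and 0 of the 61 were well above background on all 3 arrays where they were detected. That probe, GYUW2K402HHKUY, was at -1.25, -1.79 and -3.78 in the treated arrays and was listed at -5.02, -4.79 and -5.43 in the controls, where it was not above background. Against the lowest well-measured signals of the control arrays it was at least 1.63-fold higher after treatment. It was positive and significant on 9 of all 30 arrays. By the same calculation, GYUW2K401CUQ0M and GYUW2K401BAL0B were 1.74-fold and 1.41-fold higher. Each was well above background on only 2 of 3 treated arrays, so these folds are not firm bounds. The 2 probes were detected on 23 and 20 of all 30 arrays. Of those detected in the controls alone, GYUW2K401BCQ4D was at -0.89, -2.88 and -3.02 there and by this calculation 1.93-fold lower in the treated arrays. Contig05268 and contig16018 were 1.88-fold and 1.57-fold lower. Of their 3 control arrays, 1, 2 and 1 were well above background, so these folds are not firm bounds either. These 3 probes were detected on 16, 13 and 14 of all 30 arrays. No test was made on these probes.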

How the data were processed

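RNA of 6 pools of 20 worms was hybridised by the authors, each pool on its own array of a custom Agilent one-colour design, within a series of 30 arrays and 10 conditions. The deposited values used here are intensity: the processed signal of each spot, after background subtraction by Agilent Feature Extraction 10.7.3.1, per the file headers. Groups were taken from the sample titles. Control spots were left out, probes had to be positive and significant on all 30 arrays (24653 of 43750), and log2 signals were centred on each array's median over these probes. One mean per condition was fitted to all 30 arrays with limma 3.58.1 (R 4.3.3) and moderated, and two-sided p-values were adjusted by Benjamini-Hochberg per comparison at a threshold of 0.05. The p-values rest on the spread between arrays of a condition, pooled over the 10 conditions. Each pool had its own array, so this spread holds differences between pools together with those of labelling, slide and scan day. The main fit has no slide term, and 3 arrays a group limit the precision. Probes were named by rule: past the threshold, with groups that do not overlap and the brighter group well above background, the 10 largest rises and falls and, per direction, the 3 of lowest p and the 3 brightest; up to 2 per direction past the threshold in each other contrast; and the 3 brightest per direction outside the filter. Bounds on folds ("at least") set the mean of the bright group against the lowest well-measured signal of each dim array. They are firm only where all arrays of the bright group were well above background. The members and rules were chosen with earlier results of these data known. Alternatives covered scaling, MedianCD and SVCD normalization by the study's code, background correction, filters, samples in the fit, slide, scan day, replicate number and single arrays. The limma comparison of NiNO3 EC50 with control at day 3 and the median scaling were tested on simulated data with independent noise. The labelled animals could not be checked against marker genes, since probes carry no gene names here. Authors' processed values in the series table are the processed signal, rounded. Their log2 differed from the log2 of the scanner signal by at most 0.00719.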

Additional observations from a re-analysis of the deposited data

Results flagged for a closer look

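The response to NiNO3 EC50 differed between day 3 and day 7 for 2 probes in a test of the difference itself (limma interaction, Benjamini-Hochberg over 24653 probes). For contig07722 the difference from the control was higher at day 7 than at day 3 by 4.38 on the log2 scale (95% interval 2.91 to 5.85, adjusted p = 0.0312), with 3 of 3 treated arrays above all control arrays at each day. For contig11434 it was higher by 2.90 (2.13 to 3.66, adjusted p = 0.00133), from -0.82 at day 3 (adjusted p = 0.211) to 2.08 at day 7, with 3 of 3 treated arrays above the controls at day 7. At day 3 its treated arrays ran from 5.54 to 6.07 and its control arrays from 6.06 to 6.98. Contig11434 passed in 29 of 33 settings and contig07722 in 15. Neither passed with another background correction (normexp on the median signal).

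Outside the analysed probes, 109 (0.249% of 43750) were positive and significant on all 3 treated arrays and on no control array. In the reverse case there were 61 (0.139%). Of these, 1 of the 109 and 0 of the 61 were well above background on all 3 arrays where they were detected. No test was made on them.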

How the results depend on the processing

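The direction of all 178 probes was kept under every alternative in which they were tested (166 of them with the filter on probes well above background). In fits to fewer arrays and under scalings that shift whole arrays, this had to follow from the choice of the probes. Their number, 178, moved by more than 1.5 times under MedianCD normalization (332), spike-in scaling (27), no filter on dim probes (115), detection required on the compared arrays only (104), a fit to the compared arrays (16) or to the day 3 arrays only (114), a per-probe t-test on the same values (1) and slide as a fixed block (65). Of alternatives chosen after seeing the data, it was 62 with normexp on the median signal (33.9% higher), 57 with the first scan day alone, 53 without both replicate 3 arrays and 252 with scan day as a block. Leaving out single arrays gave 69 to 152. The fits to fewer arrays have fewer residual degrees of freedom, and the cause of their moves and of the others was not tested. Normexp on the mean signal was not run, because the values used here hold the median signal.

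The EC50 and EC20 of the salt differed at 0 probes in all settings. For the salt against the nanoparticles, 1 probe passed with MedianCD, with SVCD and with slide as a random block, contig05383 each time, and 0 otherwise. For day 7 minus day 3, the count of 2 became 0 with spike-in scaling and the per-probe t-test, 1 with no filter, with detection on the compared arrays only, with the compared arrays alone, with slide as a fixed block and without both replicate 3 arrays, 4 with the median of well-measured probes and slide as a random block, and 5 with scan day as a block. The probe that passed with the compared arrays alone was contig07722. Contig02070 passed beside contig11434 and contig07722 with the filter on probes well above background. Under normexp on the median signal, contig23672, contig16994 and contig25506 passed, and neither contig11434 nor contig07722 did. Leaving out single arrays gave 1 to 17, with 17 without NiNO3 EC50 7days replicate 3.

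Replicate numbers were tested as a block. Deviations of equally numbered treated and control arrays correlated at 0.21, 0.0287 and 0.38, so the numbers were not read as pairs. Treated replicate 2 correlated best with control replicate 1 (0.32). The highest value of all treated and control pairs, 0.38, was that of the replicate 3 arrays, which shared a slide and a scan day. Whether the slide accounts for it was not tested. With the replicate block 201 probes passed at day 3 (90 higher, 111 lower), 171 of them among the 178, and 4 in the day 7 minus day 3 contrast. The median standard error was 0.45 in the dimmest of 4 equal groups of probes against 0.23 in the brightest.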
